A study of Mus musculus with 6 samples.

Results

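Regenerating tibialis anterior muscle (TAM) of control-diet mice was compared between 5 and 14 days after injury (dpi), in all cells and in cells with at least 1 UMI of Pdgfra, Cdh5 or Lyz2. A UMI (unique molecular identifier) stands for 1 captured RNA molecule, and these 3 genes mark fibro-adipogenic progenitors (FAPs), endothelial cells and monocytes or macrophages. The 2 libraries gave 5722 cells, 2428 at 5 dpi and 3294 at 14 dpi, of the 11207 cells used from all 6 libraries of the series. Cells were chosen as the first run of columns of each file, ending where the cell barcodes leave alphabetical order. The files hold 20269 columns in all.

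The study profiled TAM of control and hypothyroid mice by single-cell RNA sequencing before injury and on 2 days after it, with 1 library for each combination of diet and day. Both libraries compared here came from male mice of B6;129 background with Gt(ROSA)26Sor<tm1(Fucci2aR)Jkn, a cell cycle reporter allele. They were 3 to 5 months old when the diets began and were fed the control diet. The methods describe the animals as Cre-negative, so the reporter was not switched on by Cre in any lineage. Injury was made by cardiotoxin, a snake toxin that destroys muscle fibres, at 50 μg/ml in the right TAM. The day of collection is the only difference between the groups that the labels give. Each day is 1 library, so day, mice, digestion and capture cannot be told apart. Each library pooled digested muscle of 3 mice, so there were no replicates, no test was run, and every interval below covers counting error only. The hypothyroid mice received a low-iodine diet with propylthiouracil, which blocks thyroid hormone synthesis. Their pair of libraries and the uninjured control library are given beside the main values as context.

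Some cells stand in more than 1 file. Of the 2428 cells at 5 dpi, 528 stand with identical values in the hypothyroid day 0 file as well, among them 65 Pdgfra-positive, 32 Cdh5-positive and 68 Lyz2-positive cells. The first runs of the 5 and 14 dpi files share 2 barcodes and no identical cell. The 5 dpi library held 15434926 UMIs with a median of 3846 per cell and a range of 503 to 49806, and the 14 dpi library 16466603 UMIs with a median of 3979.5 and a range of 492 to 37456. These totals were recovered from normalized values and run past the upper limit on UMIs per cell that the methods state, and whether that limit was applied to the deposited cells is not known. Expression is given as CPM, the UMIs of a gene per 1000000 UMIs of all cells in a population taken as 1 pool, and a ratio is CPM at 14 dpi over CPM at 5 dpi with its exact binomial 95% interval. Genes with at least 100 UMIs in both pools together were compared, and a gene is said to have risen or fallen when its ratio passed 2-fold, which is a rule of size and not a test. In sums over a population, fewer cells of a type and less RNA per cell cannot be told apart.

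After cardiotoxin, dead fibres are cleared by infiltrating monocytes that mature into macrophages, while muscle stem cells and FAPs divide and FAPs lay down a provisional matrix of collagens and adhesive glycoproteins. As fibres rebuild, macrophages shift from inflammatory to tissue-resident forms, FAPs return toward a resting state, and capillaries regrow with the fibres they feed. In mouse muscle these events run from the first to the second week after injury, which the 2 days bracket.

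Pdgfra encodes the platelet-derived growth factor receptor of FAPs, and 316 of 2428 cells at 5 dpi (exact binomial interval 11.7% to 14.4%) and 1102 of 3294 at 14 dpi (33.5%, 31.8 to 35.1) held a UMI of it. Cdh5, the cadherin of endothelial junctions, was found in 6.75% of cells at 5 dpi (5.79 to 7.83, 164 cells) and in 25.9% at 14 dpi (24.4 to 27.5, 854 cells). Lyz2, the lysozyme of myeloid cells, was found in 14.9% at 5 dpi (13.5 to 16.3, 361 cells) and in 8.04% at 14 dpi (7.14 to 9.03, 265 cells). The Pdgfra and Cdh5 shares were thus higher at 14 dpi and the Lyz2 share lower, and none of the intervals met. With each cell thinned to 1000 UMIs, which left 2315 and 2860 cells, the shares were 2.94% and 14.8% for Pdgfra, 5.14% and 17.8% for Cdh5, and 9.16% and 4.62% for Lyz2. Median depth of Pdgfra-positive cells differed between days, with 14989.5 UMIs at 5 dpi and 6071.5 at 14 dpi.

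The background of such shares was read in cells with a Cd3d, Cd3e or Cd3g UMI, the T cell receptor subunits, of which there were 402 at 5 dpi and 89 at 14 dpi with median depths of 2433.5 and 2514 UMIs. In them Pdgfra was found in 2.49% and 2.25%, Cdh5 in 0.995% and 5.62%, and Lyz2 in 4.73% and 7.87% on the respective days. At 14 dpi the Lyz2 background rested on 7 of 89 cells, with an interval of 3.22% to 15.5% that holds the 8.04% of all cells. With so few cells, this comparison cannot tell whether the Lyz2 share lies above background. Cells with UMIs of more than 1 of the 3 genes numbered 50 at 5 dpi and 177 at 14 dpi, and at 14 dpi 21.1% of Lyz2-positive cells also held Pdgfra and 20.8% also held Cdh5.

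**Figure D1:**
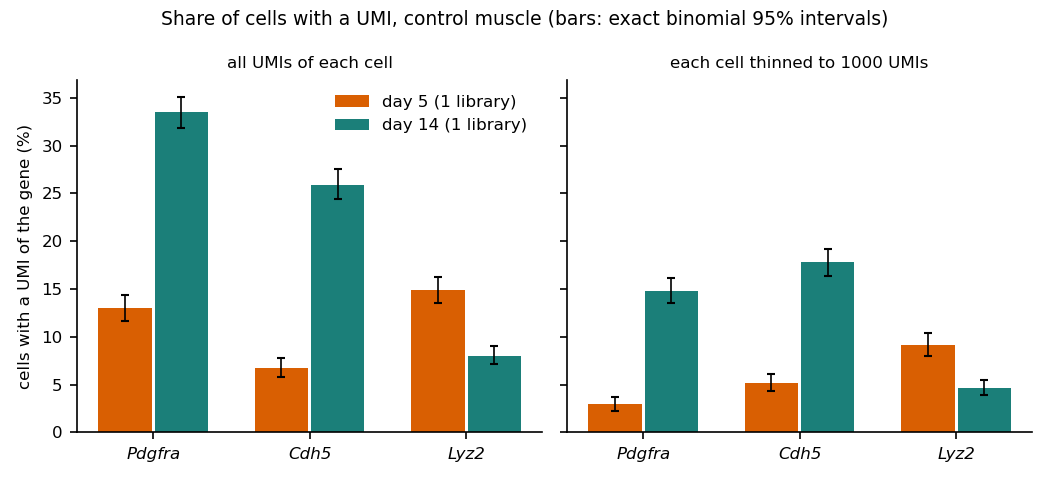
Bars give the percentage of cells with at least 1 UMI of Pdgfra, Cdh5 or Lyz2 at 5 dpi (orange) and 14 dpi (green), with all UMIs of each cell on the left and after thinning to 1000 UMIs on the right, and lines give exact binomial 95% intervals. On both sides Pdgfra and Cdh5 bars are higher and the Lyz2 bar is lower at 14 dpi.

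Each population was checked against markers of its lineage without the gene that chose its cells, beside reference cells, which hold a UMI of another of the 3 genes and none of its own. The other 8 FAP markers summed to 38817 CPM at 5 dpi and 42684 at 14 dpi in Pdgfra-positive cells, against 2858 and 6525 in reference cells. The other 8 endothelial markers summed to 3813 and 3618 CPM in Cdh5-positive cells, against 36.5 and 87.4. In Lyz2-positive cells the other 8 monocyte and macrophage markers summed to 2532 and 2024 CPM, against 15.8 and 16.4 in reference cells, but below the 9324 and 18223 CPM of FAP markers in the same cells. RNA of other cells moved with the day. The 9 muscle fibre markers all rose in every population, from 594 to 9268 CPM in Pdgfra-positive cells, from 1801 to 10815 in Cdh5-positive cells and from 1083 to 10532 in Lyz2-positive cells. Acta1, skeletal actin, was found in 3262 of 3294 cells at 14 dpi and in 1356 of 2428 at 5 dpi. Haemoglobin and other erythrocyte markers summed to 146 and 629.8 CPM, 265 and 2214, and 16.6 and 3333 in the same order, although the methods describe a red blood cell lysis step, and in Cdh5-positive cells the 5 tenocyte markers went from 31.8 to 1394 CPM. None of the fibre markers was at 0 on either day. The part of this RNA in the values below was not tested, so values of reference cells are given beside many of them.

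**Figure D2:**
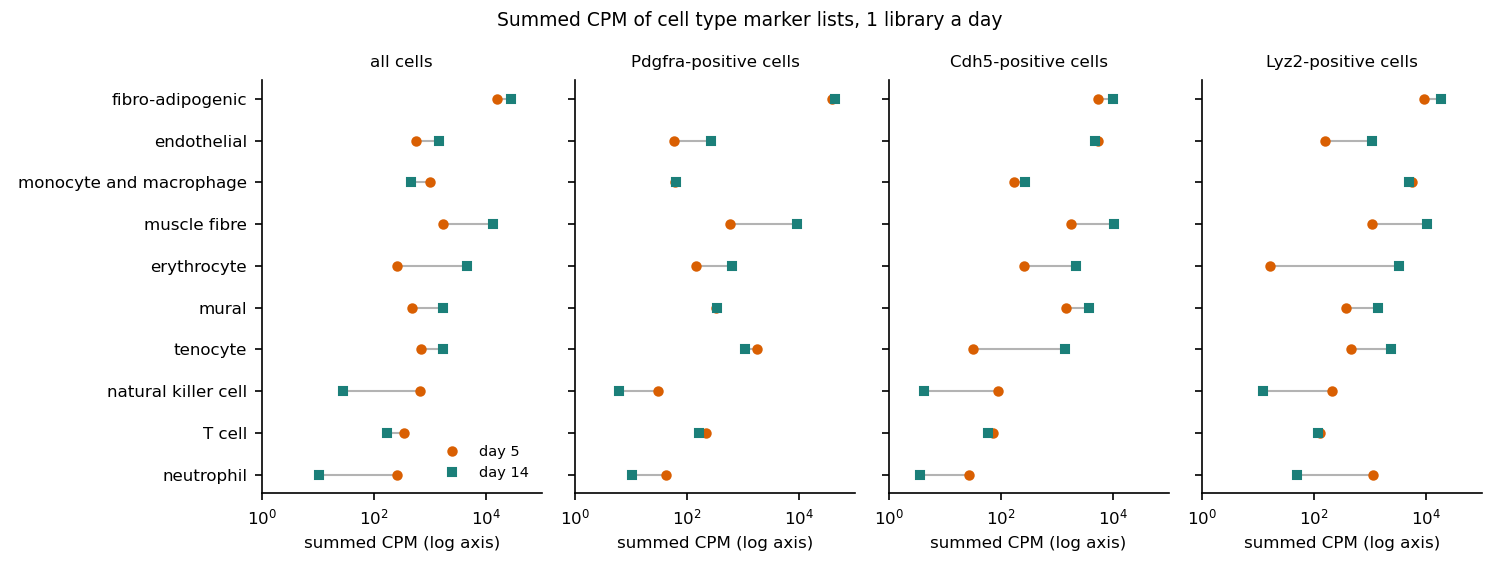
Each panel is a population, and each line joins the summed CPM of a cell type's marker list at 5 dpi (orange circle) and 14 dpi (green square) on a log axis, from 1 library a day. Muscle fibre and erythrocyte markers lie to the right at 14 dpi in all 4 panels, while natural killer cell and neutrophil markers lie to the left.

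Over all cells, the 14 dpi library held more stromal, endothelial, tendon and fibre RNA and less RNA of lymphocytes, myeloid cells and dividing cells. Of 11661 genes compared, 1481 rose (12.7%) and 1949 fell (16.7%). The median ratio was 0.919, a shift of -0.12 on the log2 scale, and the excess of falls depended on scaling. Divided by that median, 1726 genes rose and 1663 fell, and with the mean of each cell's own CPM 2247 rose and 2093 fell. With all columns of each file 198 rose and 1182 fell. Of the genes that rose and could be compared in the hypothyroid pair, which shares no library with this one, 743 of 1260 (59.0%) rose there too, against 12.1% of all genes compared in both. Of the genes that fell, 606 of 1818 (33.3%) fell there too, against 8.19%. Without the 528 cells that stand in another file, 1447 genes rose and 1851 fell.

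Among the genes with the largest falls were Spp1, Saa3, Il4i1, Gzmb and Xcl1. Spp1 (chromosome 5, 104582984 to 104588917, mm39), which encodes the adhesive cytokine osteopontin, fell from 25778 UMIs, or 1670.1 CPM (Poisson interval 1649.8 to 1691), to 264 UMIs (14.2 to 18.1 CPM) and was found in 508 and 71 cells, with 31.2 CPM in uninjured muscle. Saa3, an acute-phase serum amyloid, fell from 214 to 1.76 CPM, but only 62 cells held it at 5 dpi. Il4i1, an amino acid oxidase of antigen-presenting cells, fell from 89.3 to 0.789 CPM. These changes of 104-fold, 121-fold and 113-fold stood far outside the counting error of either pool. Gzmb, the granzyme B of cytotoxic lymphocytes, fell from 125 to 1.76 CPM and the chemokine Xcl1 from 56.6 to 0.729. All 7 natural killer cell markers fell and their sum went from 681 to 28.6 CPM; Klrb1c, which encodes the receptor NK1.1, went from 16.2 to 0.182 CPM and Eomes, a transcription factor of these cells, from 132 to 2.61.

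Of 9 T cell markers 7 fell, with a sum of 345 and 169.6 CPM, and here the hypothyroid pair differed, since 7 of 9 rose there. Cd3e had a ratio of 0.219 (0.172 to 0.275) in the control pair and 5.91 in the hypothyroid pair. All 9 genes of MHC class II antigen presentation fell over all cells, among them H2-Aa from 1469.7 to 280.4 CPM and its chaperone Cd74 from 1886 to 627. H2-Aa stood in the hypothyroid pair at 720.1 and 738 CPM. S100a8, a calcium-binding protein of neutrophils, fell from 95.7 to 2.79 CPM.

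Among the 8 genes with the largest rises over all cells were Cox8b, a respiratory chain subunit of muscle, from 4.79 to 149 CPM, Ptx4 from 0.777 to 32.1, Angptl7 from 1.10 to 39.2, and Shisal2b from no UMI to 6.56. The other 4 are known from tendon, its junction with muscle, or cartilage. Col22a1 (chromosome 15, 71667644 to 71906077), a collagen of the muscle-tendon junction, rose from 0.648 to 82.2 CPM with UMIs in 2 and 131 cells. Cilp2 and Chad, both cartilage matrix proteins, rose from 0.389 to 49.7 and from 0.583 to 42.5 CPM, and Tnmd (tenomodulin), which marks tenocytes, from 9.85 to 273. Uninjured muscle held 12.6 CPM of Col22a1, 53.3 of Chad and 59.8 of Tnmd. Of 7 myogenic progenitor markers, the stem cell gene Pax7 fell from 7.26 to 1.34 CPM in 53 and 15 cells and Cdh15 (M-cadherin) from 22.3 to 2.13, while Myod1, which drives myoblast commitment, rose from 23.8 to 136. Myod1 also rose in Cdh5-positive cells, from 3.03 to 156 CPM in 2 and 55 cells. Whether those cells were myogenic was not tested.

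**Figure D3:**
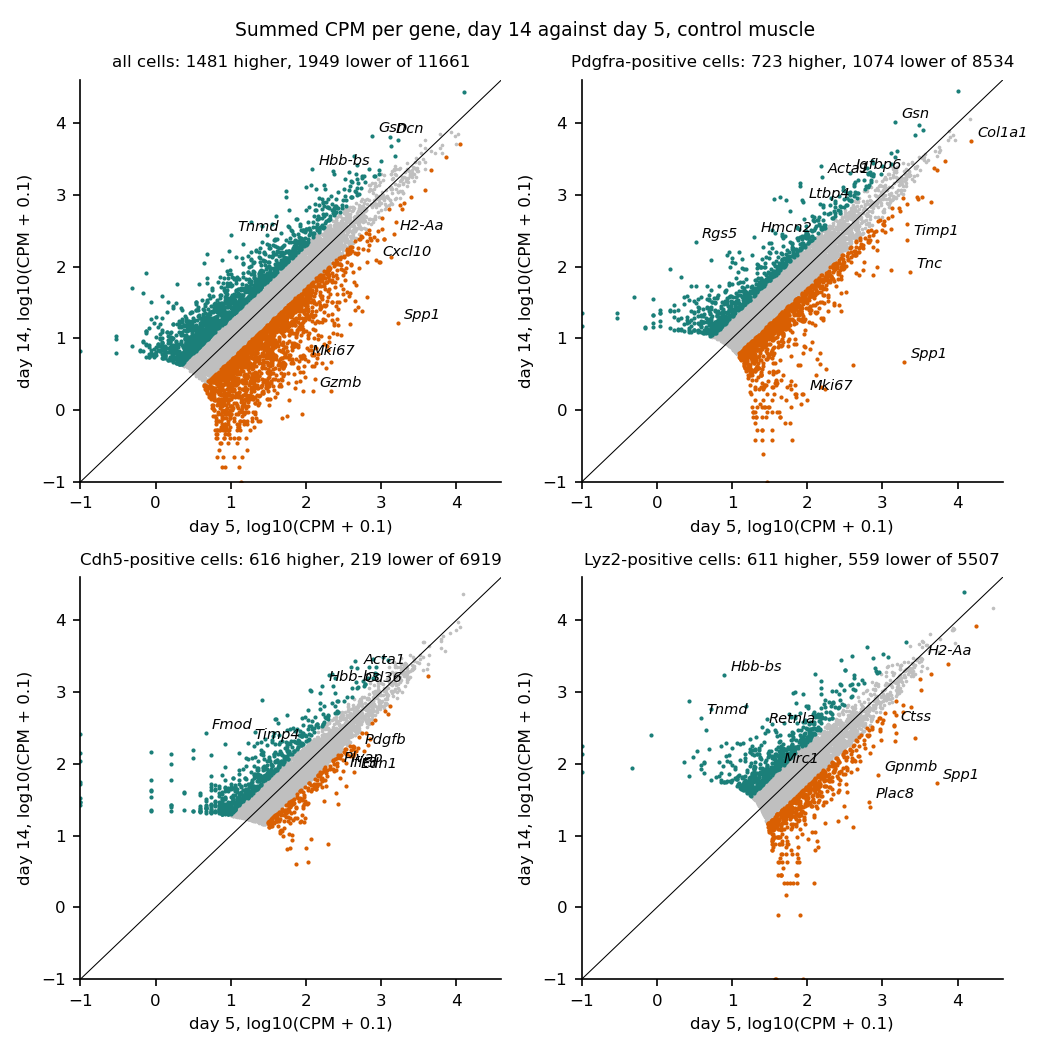
Each point is a gene with at least 100 UMIs, plotted by its CPM at 5 dpi (horizontal) and 14 dpi (vertical) as log10(CPM + 0.1), with the line of equal level, in each of the 4 populations. Green genes rose and orange genes fell by at least 2-fold, and Spp1 lies furthest below the line among abundant genes in all cells, Pdgfra-positive cells and Lyz2-positive cells.

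DNA replication and mitosis genes fell across the muscle. Of the 32 listed, 31 fell over all cells with a median log2 ratio of -3.57, and 30 of 31 compared fell in Pdgfra-positive cells with a median of -4.77. In Lyz2-positive cells 11 of 13 fell and in Cdh5-positive cells 5 of 12, with the other 7 lower by less than 2-fold. The hypothyroid pair had 26 falls of 32 over all cells, 24 of 28 in Pdgfra-positive and 4 of 13 in Lyz2-positive cells, and in Cdh5-positive cells none of 7 fell and 1 rose. In Pdgfra-positive cells Mki67, the Ki-67 proliferation antigen, fell from 88.7 to 1.56 CPM (ratio 0.0175, 0.00869 to 0.0317) and Cdk1, the kinase that starts mitosis, from 100.4 to 1.27 CPM. Top2a, the topoisomerase that untangles replicated DNA, fell from 147 to 4.25 CPM, and Ube2c, which helps destroy mitotic cyclins, from 171 to 1.84. Pcna, the replication clamp, which also serves DNA repair, stood at 144 and 89.1 CPM and was the exception. Uninjured Pdgfra-positive cells held 0.651 CPM of Mki67, and the hypothyroid pair went from 40.2 to 0.296.

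The share of cells with an Mki67 or Top2a UMI was also lower at 14 dpi after thinning to 1000 UMIs. It was 9.07% at 5 dpi and 0.909% at 14 dpi in all cells, 14.0% and 0.467% in Pdgfra-positive cells, 6.62% and 11 of 733 cells in Cdh5-positive cells, and 6.55% and 0.847% in Lyz2-positive cells. Without thinning, the Pdgfra-positive shares were 38.9% and 0.907%. The thinned intervals in Cdh5-positive cells were wide, 3.22 to 11.8 at 5 dpi and 0.751 to 2.67 at 14 dpi, and Mki67 there stood at 44.7 and 10.7 CPM in 18 and 17 cells, with 82.6 CPM at 5 dpi in the reference cells.

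The promoters of many of these genes, but not all, carry short motifs of known regulators. Examples that hold a motif are shown here beside those of interferon-stimulated genes, a second list with many falls. TTTGAA is the core of the cell cycle homology region bound by the repressor complex of resting cells, CCAAT is the box bound by NF-Y, and TTTC, any 2 bases and TTTC again is the core of the interferon-stimulated response element. The 150 bases before the start site follow, 5′ to 3′ on the gene's strand, from RefSeq on GRCm38.p6, a build that differs from the mm39 of the files. Capitals mark TTTGAA or CCAAT in either orientation for Cdk1 (chr10:69352913-69353062, minus strand) and Mki67 (chr7:135716380-135716529, minus), and the interferon motif for Ifit1 (chr19:34640739-34640888, plus) and Ifit3 (chr19:34583379-34583528, plus).
Cdk1: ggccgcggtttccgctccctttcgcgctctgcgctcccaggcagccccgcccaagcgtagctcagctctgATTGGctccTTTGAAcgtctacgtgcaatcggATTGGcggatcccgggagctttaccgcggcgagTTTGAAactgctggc
Mki67: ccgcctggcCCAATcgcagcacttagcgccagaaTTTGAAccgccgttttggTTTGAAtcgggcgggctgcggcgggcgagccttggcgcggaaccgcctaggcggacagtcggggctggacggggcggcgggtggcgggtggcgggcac
Ifit1: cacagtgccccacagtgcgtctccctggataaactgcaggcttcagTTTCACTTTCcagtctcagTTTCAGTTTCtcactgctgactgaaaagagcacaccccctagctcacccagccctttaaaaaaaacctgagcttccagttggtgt
Ifit3: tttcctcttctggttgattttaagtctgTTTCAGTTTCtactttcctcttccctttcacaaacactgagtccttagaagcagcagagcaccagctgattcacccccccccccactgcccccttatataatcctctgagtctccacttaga
In windows from 250 bases before to 50 after the start, searched on both strands, TTTGAA was found in 11 of 26 matched replication genes (42.3%) and CCAAT in 22 of 26 (84.6%), against 20.2% and 41.1% of all 27025 promoters. The interferon motif was found in 12 of 20 matched interferon-stimulated genes (60.0%), against 3.99% of all promoters. Such matches describe the letters and do not show that a factor is bound.

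Interferon-stimulated genes, which cells switch on when they sense interferon, fell in part in every population. Over all cells 13 of 24 fell and 1 rose, with a median log2 ratio of -1.22. In the 3 populations the counts of falls were 10 of 23 in Pdgfra-positive cells, 10 of 23 in Cdh5-positive cells and 13 of 23 in Lyz2-positive cells, with medians of -0.82, -0.84 and -1.11. Ifit3 fell from 163 to 39.1 CPM over all cells, and Ifit1 of the same family from 321 to 139. The chemokine Cxcl10 fell from 863 to 124 CPM. Cxcl9, a chemokine induced mainly by interferon gamma, rose from 40.8 to 112 CPM. The hypothyroid pair moved the same way for Ifit3, from 184 to 80.7 CPM, and held Cxcl9 at 122 and 123.

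In Pdgfra-positive cells, 30 of 31 replication genes and 10 of 16 injury matrix genes fell, while 11 of 15 interstitial fibroblast genes and 7 of 13 basement membrane genes rose. Of 8534 genes compared, 723 rose (8.47%) and 1074 fell (12.6%), or 703 and 956 without the cells that stand in another file. In the hypothyroid pair 393 of 636 of the first (61.8%) and 550 of 1028 of the second (53.5%) moved the same way, against 12.5% and 11.1% of all genes compared in both. At the higher of the 2 levels, 245 of the genes that rose (33.9%) and 472 of those that fell (43.9%) stood at least 2-fold above reference cells. The 8 top-ranked rises were Rgs5, Cox8b, Chad, Col22a1, Ckm, Cilp2, Myh11 and Tnnt3. All but Chad stood higher in reference cells at 14 dpi, with Rgs5 at 217 CPM here and 2998 there. Pdgfra itself, which chose the cells, stood at 221 and 411 CPM.

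Of 16 injury matrix genes, 10 fell and none rose, with a median log2 ratio of -2.45. Tnc (tenascin C), an adhesion-modulating glycoprotein of wounds, fell from 2319 CPM (2277 to 2362) to 82.8 (76.2 to 89.8), a 28.0-fold change, and stood at 6.18 CPM in uninjured muscle. Postn (periostin), which binds collagen to cells, fell from 4413 to 805 CPM, and Cthrc1, a secreted protein of activated fibroblasts, from 851 to 99.1. The protease inhibitor Timp1 fell from 2118 to 238 CPM and Acta2, smooth muscle actin of contractile fibroblasts, from 277 to 24.3, the latter with 287 CPM in reference cells at 14 dpi. Tnc, Postn, Cthrc1 and Timp1 were low in uninjured Pdgfra-positive cells, between 0.651 CPM for Cthrc1 and 14.6 for Postn, so their 14 dpi levels lay between those of the injured and the intact muscle. Spp1 fell most, from 1952 to 4.53 CPM in 116 and 10 cells, but reference cells at 5 dpi held 3911 CPM of it. Fn1 (fibronectin) had equal levels, 3511 and 3524 CPM, with a ratio between 0.984 and 1.02, and 1627 CPM in uninjured muscle.

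Of 8 fibrillar collagens 3 fell and none rose, and of 17 genes that process and crosslink them 8 fell and 1 rose. Col1a1, a chain of type I collagen, fell from 15221 CPM (15114 to 15329) to 5639 (5584 to 5694), against 1094 in uninjured muscle. Col1a2, which encodes the other chain, did not pass 2-fold. Col3a1 of type III collagen stood at 14764 and 11319 CPM, a ratio of 0.767 (0.759 to 0.774) that did not pass 2-fold. The other collagens that fell were Col5a1, from 1326 to 645 CPM, and Col27a1, from 82.0 to 24.2. Serpinh1, the collagen chaperone HSP47, fell from 2969.7 to 861 CPM, the crosslinking oxidase Lox from 1292 to 337, and its relative Loxl3 from 266 to 29.0. Pcolce2, an enhancer of procollagen cleavage, rose from 115 to 509 CPM and stood at 721 in uninjured muscle.

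The same genes were also read per cell. With each cell thinned to 1000 UMIs (315 and 1071 cells), the median cell held 13 Col1a1 UMIs at 5 dpi and 4 at 14 dpi, 3 and 9 of Dcn, and 1 and 10 of Gsn. A Tnc UMI was found in 47.9% of thinned cells at 5 dpi (42.3 to 53.6) and in 3.27% at 14 dpi (2.29 to 4.52), and a Postn UMI in 77.8% and 28.1%.

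Most listed genes of interstitial and progenitor-type fibroblasts rose. Of 15 interstitial fibroblast genes 11 rose and 1 fell, with a median log2 ratio of 1.36, and of 14 progenitor-type genes 8 rose and none fell, with a median of 1.24. Gsn (chromosome 2, 35146392 to 35197905), the actin-severing protein gelsolin, rose from 1469 CPM (1436 to 1503) to 10293 (10219 to 10369), against 25578 in uninjured muscle. Hmcn2, a large matrix protein of the immunoglobulin family, rose from 19.4 to 261 CPM, the largest ratio of these lists at 13.4 (10.9 to 16.6), with 52 and 528 cells holding it. Apod, a lipid carrier, rose from 266 to 954 CPM and the transporter Abca8a from 45.6 to 287. Among progenitor-type genes, Pi16, a peptidase inhibitor that marks adventitial fibroblasts, rose from 375 to 1081 CPM, Clec3b (tetranectin) from 303 to 1177, and the surface peptidase Dpp4 from 35.7 to 81.1. Igfbp6, which binds insulin-like growth factor II, rose from 368 to 2008 CPM. Myoc (myocilin), chosen after its values were seen for its ratio among genes above reference cells, rose from 84.4 to 837 CPM. Cxcl14, a chemokine of the interstitial list, went against it and fell from 2091 to 391 CPM, with 1374 in uninjured muscle.

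Small proteoglycans and elastic fibre genes moved both ways, and basement membrane genes in 1 direction. Of 18 elastic fibre and proteoglycan genes 7 rose and 3 fell. Dcn (decorin), which coats collagen fibrils, rose from 3044 to 9489.6 CPM, and Ltbp4, which guides elastin assembly, from 86.4 to 799.9, above the 468 CPM of uninjured muscle. Bgn (biglycan), a close relative of decorin, fell from 2862 to 919 CPM, and the elastin-binding Emilin1 from 225 to 31.4. Of 13 basement membrane genes 7 rose and none fell, including Nid1 (nidogen 1) from 568 to 1618 CPM, the laminin chain Lama2 from 73.3 to 347, and Col4a1 from 338 to 901, the last with 2251 CPM in reference cells at 14 dpi. Of these 7 genes 3 stood at least 2-fold above reference cells. All 8 endothelial markers compared rose in the same Pdgfra-positive cells, with a summed level of 58.8 and 272 CPM, and their part in the basement membrane values was not tested. Mmp2, a gelatinase, and its inhibitor Timp2 rose from 352 to 1046 and from 706 to 1903 CPM. Mmp3, stromelysin 1, stood at 309 and 199.9 CPM here and at 72.1 and 649 in the hypothyroid pair.

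**Figure D4:**
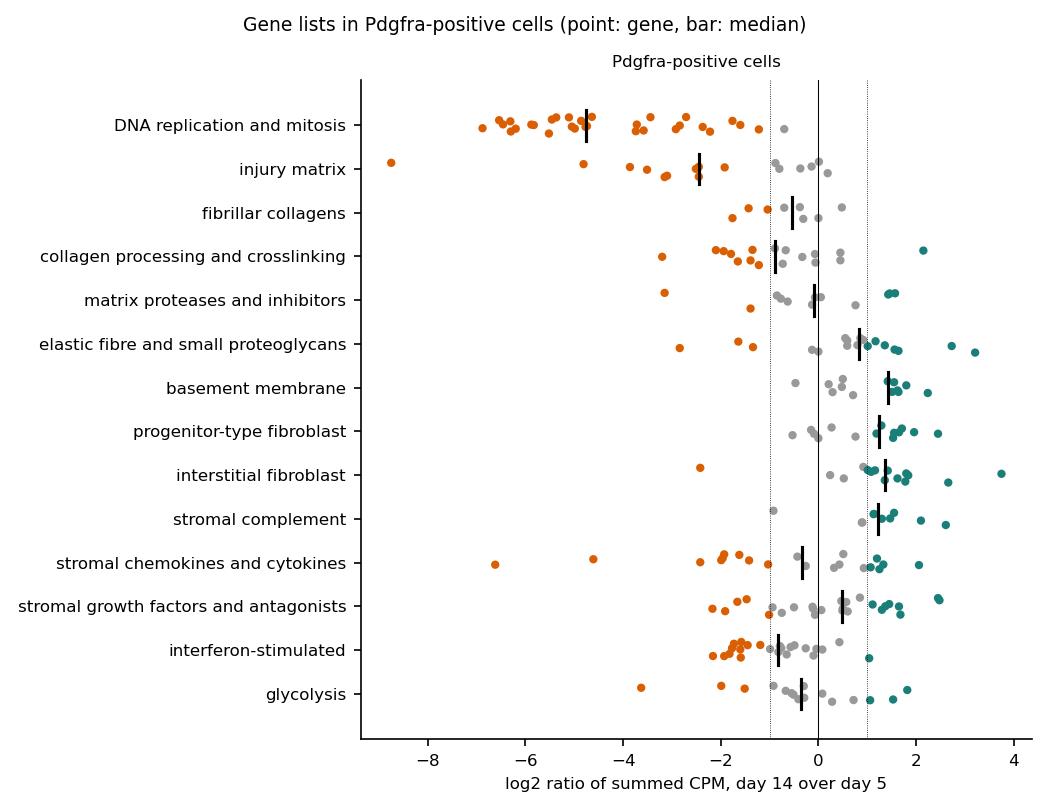
Points are genes of 14 lists in Pdgfra-positive cells by their log2 ratio of summed CPM (14 over 5 dpi), bars are list medians, dotted lines mark 2-fold, and green and orange points rose or fell. Replication and injury matrix genes lie to the left, with medians of -4.77 and -2.45, and interstitial fibroblast and basement membrane genes to the right, with medians of 1.36 and 1.42.

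Secreted signals of Pdgfra-positive cells moved in both directions. Of 20 chemokines and cytokines 5 rose and 9 fell. Csf1, the growth factor of macrophages, rose from 719 to 3004 CPM, and the chemokines Cxcl1 and Ccl2, which draw neutrophils and monocytes, from 2737 to 6899 and from 3412 to 8109.6, levels that stood at 6456 and 8654 in uninjured muscle. Cxcl12, which retains leukocytes and progenitors, fell from 498 to 186 CPM, and the cytokine Lif from 257 to 66.1. Il6, which acts on myoblasts and immune cells, fell from 377 to 185 CPM, just past 2-fold. In the 68 and 422 cells that still held a Pdgfra UMI after thinning to 1000 UMIs, the Il6 ratio was 1.02. Saa3 fell from 403 to 4.10 CPM but was held by 36 and 5 cells. Of 26 growth factors and antagonists 8 rose and 5 fell, with Gdf10, a ligand of the transforming growth factor family, rising from 7.92 to 44.3 CPM and Inhba, the activin A subunit, falling from 842 to 224. Igf1, a growth factor for fibres, stood at 297 and 421 CPM and did not pass 2-fold. Of 10 complement genes 7 rose and none fell, including C3, the central component of the cascade, from 376 to 820.3 CPM. In glycolysis, 3 of 16 genes rose and 3 fell, with the entry enzyme Hk2 up from 319 to 1129 CPM and the lower-pathway enzymes Eno1 and Pkm down from 109.9 to 27.6 and from 429.9 to 151.

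In Cdh5-positive cells, 9 of 16 capillary genes rose, 10 of 23 interferon-stimulated genes and 4 of 20 tip cell and sprouting genes fell, and none of 21 receptors and junction proteins passed 2-fold. Of 6919 genes compared, 616 rose (8.90%) and 219 fell (3.17%), or 606 and 216 without the cells that stand in another file. In the hypothyroid pair, 138 of 336 of the first (41.1%, background 12.1%) and 44 of 146 of the second (30.1%, background 4.50%) moved the same way. That pair held only 64 Cdh5-positive cells at 5 dpi, with 5686 CPM of monocyte and macrophage markers and 2438 of endothelial markers. The control cells at 5 dpi held 171 and 5386, and the effect on comparisons between the diets was not tested. Only 178 of the 616 (28.9%) and 65 of the 219 (29.7%) stood at least 2-fold above reference cells. The 8 top-ranked rises were Tnmd, Col22a1, Kera, Fmod, Hbb-bt, Thbs4, Hmcn2 and Myod1, so they include tendon, haemoglobin and myogenic genes. Tnmd had no UMI at 5 dpi and 258 CPM in 62 cells at 14 dpi. Its ratio was 114 against a floor of 3 counts in the 5 dpi pool, with 92.3 as the lower end of the exact interval. Fmod (fibromodulin) went from 4.55 to 266 CPM in 1 and 75 cells. Hbb-bt, a beta-globin, went from 1.52 to 137 CPM in 2 and 59 cells, and Myod1 from 3.03 to 156 in 2 and 55 cells. Rgs5, a marker of pericytes, which wrap capillaries, rose from 1076 to 3124 CPM.

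Of 16 capillary genes 9 rose and none fell, with a median log2 ratio of 1.06. Cd36, the fatty acid transporter of muscle capillaries, rose from 499 CPM (461 to 538) to 1189.9 (1159 to 1222), with 63.9 in reference cells at 14 dpi. Gpihbp1, which anchors lipoprotein lipase on capillaries, rose from 194 to 484 CPM and was nearly absent from reference cells, at 0.145 and 3.42. Aqp1, the water channel, rose from 584 to 1205 CPM, and Tcf15, a transcription factor of heart and muscle capillaries, from 69.0 to 208. Timp4 (chromosome 6, 115218853 to 115229167), a protease inhibitor, rose most, from 16.7 (10.4 to 25.2) to 193 CPM (181 to 206), in 15 and 324 cells. At 14 dpi Timp4 and Aqp1 were near the levels of uninjured cells, 194 and 1189 CPM, and Cd36 and Gpihbp1 above their 1026 and 194. The uninjured library held only 80 Cdh5-positive cells with 257421 UMIs, where 3 counts make 11.7 CPM, so its levels are rough. The fatty acid-binding protein Fabp4 stood at 6638 and 6116 CPM, a ratio of 0.921 (0.899 to 0.944). Of 14 capillary genes compared in the hypothyroid pair, 12 rose.

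Of 20 tip cell and sprouting genes 4 fell and none rose, while in the hypothyroid pair 5 of 18 rose and 2 fell. Pdgfb, the ligand that recruits pericytes, fell from 493 (455 to 532) to 166 CPM (154 to 178), Plvap, the diaphragm protein of fenestrated vessels, from 261 to 92.7, and Angpt2, which loosens vessel walls, from 257 to 121. Cxcr4, a homing receptor, fell from 174 to 78.7 CPM but was also held by reference cells at 5 dpi, at 93.5. Angpt2 went the other way in the hypothyroid pair, 74.7 and 133 CPM, a ratio of 1.79 that did not pass 2-fold. Edn1 (chromosome 13, 42454952 to 42461467), the vasoconstrictor endothelin 1, fell from 438 (403 to 475) to 75.9 CPM (68.1 to 84.3), against 19.4 in uninjured muscle and 299.9 and 76.3 in the hypothyroid pair. Vcam1, a leukocyte adhesion receptor, fell from 233 to 78.1 CPM.

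In the hypothyroid pair 9 of 20 receptor and junction genes rose, from a 5 dpi pool of 64 cells with lower endothelial marker CPM. None of 21 such genes passed 2-fold in the control pair. Kdr, the main receptor of vascular endothelial growth factor, stood at 408 and 469.6 CPM (ratio 1.15, 1.05 to 1.27), Pecam1 at 994 and 728, and Cdh5, which chose the cells, at 1573 and 1268. Of 12 artery genes 1 rose, Alpl (alkaline phosphatase) from 15.2 to 50.8 CPM, and of 11 vein genes 1 rose and 3 fell. Of 16 genes of nitric oxide, coagulation and vessel tone 1 rose and 2 fell, with a median log2 ratio of 0.15. Nos3, the endothelial nitric oxide synthase, had 56.1 and 56.7 CPM, and Vwf, the clotting factor carrier, 80.3 and 83.5. In the nuclear respiratory chain 6 of 21 genes rose, among them Cox7c from 247 to 640.1 CPM, with 531 in reference cells at 14 dpi, and none of the 21 rose in the hypothyroid pair.

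**Figure D5:**
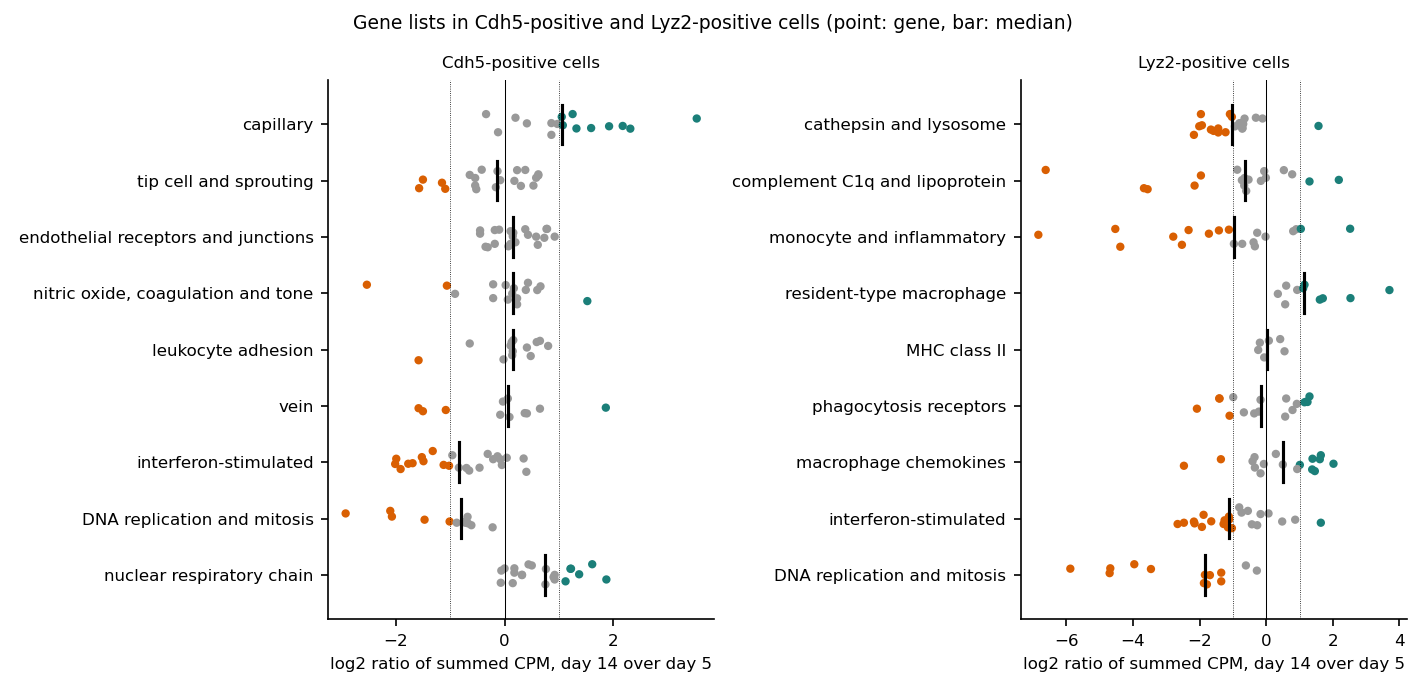
Points are genes by their log2 ratio of summed CPM (14 over 5 dpi), in lists for Cdh5-positive cells (left) and Lyz2-positive cells (right), with bars for list medians, dotted lines at 2-fold, and green and orange for genes that rose or fell. On the left the capillary list has a median of 1.06, and on the right resident-type macrophage genes have a median of 1.13 and cathepsin and lysosome genes one of -1.03.

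In Lyz2-positive cells, 9 of 19 monocyte and inflammatory genes, 11 of 21 cathepsin and lysosome genes and 5 of 18 complement C1q and lipoprotein genes fell, and 6 of 10 resident-type macrophage genes rose. Of 5507 genes compared, 611 rose (11.1%) and 559 fell (10.2%), or 596 and 509 without the cells that stand in another file. In the hypothyroid pair 294 of 598 (49.2%, background 8.87%) and 98 of 547 (17.9%, background 3.65%) moved the same way. Of the genes that rose only 43 (7.04%) stood at least 2-fold above reference cells, compared with 356 of those that fell (63.7%). Requiring 2 Lyz2 UMIs left 339 rises and 347 falls. Hbb-bs, adult beta-globin, which rose from 7.76 to 1738 CPM in 20 and 85 cells, had 643 CPM in reference cells at 14 dpi.

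Of 18 complement C1q and lipoprotein genes 5 fell and 2 rose. Spp1 fell from 5330.4 CPM (5244 to 5418) in 137 cells to 54.2 (42.9 to 67.5) in 23 cells, a 98.4-fold change. Gpnmb, a glycoprotein of lipid-loaded macrophages, fell from 879 to 69.3 CPM, the fatty acid carrier Fabp5 from 2739 to 232, and the lipid receptor Trem2 from 316 to 71.3. Trem2 was nearly absent from reference cells, at 0.728 and 0.0985 CPM. C1qa and C1qb, which start the classical complement cascade, stood at 742 and 469 CPM and at 680.3 and 608, and Apoe, a lipid transport protein, at 3434 and 4976, none past 2-fold. Gpnmb in the hypothyroid pair stood at 1010.5 and 762 CPM and Trem2 at 716 and 436, so neither passed 2-fold there.

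Of 21 cathepsin and lysosome genes 11 fell and 1 rose. Ctss, the cathepsin that trims MHC class II chaperones, fell from 1409 (1365 to 1455) to 349.9 CPM (320.1 to 382), and was at 14.7 and 0.690 in reference cells. Ctsd fell from 2378 to 612 CPM, Lgmn (legumain) from 959 to 213, and Psap, which activates lipid-degrading enzymes, from 3231 to 1078. Ctsk, a collagen-degrading cathepsin, rose from 60.3 to 179 CPM, below the 173 and 247 of reference cells. Among the hypothyroid libraries 1 of the 21 fell.

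Of 19 monocyte and inflammatory genes 9 fell and 2 rose. Il1b, the cytokine interleukin 1 beta, fell from 1466 to 211 CPM in 146 and 25 cells, Ly6c2, the surface antigen of inflammatory monocytes, from 128 to 6.17, and their chemokine receptor Ccr2 from 119 to 36.4. Plac8, found in immature monocytes and lymphocytes, fell from 666 to 28.8 CPM, with 209 in reference cells at 5 dpi. Chil3, a chitinase-like protein, went from 213 UMIs in 37 cells to a single UMI. S100a8 fell from 1110 UMIs (410.4 CPM) to 19, and only 24 and 2 cells held it. In the hypothyroid libraries 2 of 17 of these genes fell and 2 rose, and Il1b stood at 587 and 562 CPM.

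Of 10 resident-type genes 6 rose and none fell, with a median log2 ratio of 1.13. Mrc1, the mannose receptor CD206, rose from 39.9 (32.8 to 48.2) to 88.5 CPM (73.9 to 105) in 59 and 53 cells. F13a1, a clotting transglutaminase made by such macrophages, rose from 25.9 to 84.4 CPM, and the lectin Mgl2 from 9.61 to 55.6. Reference cells held at most 1.27 CPM of these 3 genes. Retnla, a secreted protein induced by interleukin 4, rose from 25.1 to 327 CPM but rests on 4 and 11 cells, and the chemokine Ccl8 rose from 45.5 to 139. Mrc1, F13a1 and Mgl2 rose in the hypothyroid pair as well, and Ccl8, at 155 and 139.8 CPM, did not. Of the 10 genes, 4 rose and 1 fell there.

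None of 6 MHC class II genes passed 2-fold in Lyz2-positive cells, although all 9 fell over all cells. H2-Aa stood at 3326 and 2910.0 CPM (ratio 0.875, 0.843 to 0.908) and Cd74 at 4356 and 6398. All 6 rose in the hypothyroid pair, with H2-Aa at 1239 and 3258 CPM, so the 14 dpi levels of the 2 diets lay closer than their 5 dpi levels. Ccr7, the receptor that guides dendritic cells to lymph nodes, fell from 138 to 6.86 CPM and Irf8, a transcription factor of dendritic cells and monocytes, from 255 to 39.8. The chemokine Ccl22 rose from 21.4 to 56.3 CPM on 18 and 5 cells.

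Immediate early genes, which respond within minutes to growth signals or to tissue digestion, rose in part. Over all cells 7 of 19 rose and none fell, in Lyz2-positive cells 10 of 19, in Cdh5-positive cells 4 of 19, and in Pdgfra-positive cells 1 rose and 1 fell. Fos rose from 483 to 1642 CPM over all cells and from 415 to 1559 in Lyz2-positive cells, where reference cells held 902 and 1806. Of 13 genes of the mitochondrial genome 3 rose over all cells. The largest ratio, that of mt-Nd4l at 35.1 and 387 CPM, is uncertain, since this gene overlaps mt-Nd4, which stood at 2621 and 2439.6. In the 24 cytosolic ribosomal protein genes none rose and 1 fell over all cells.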

How the data were processed

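UMI counts of 1 pooled library (3 mice) a day were analysed. The authors aligned reads to mm39 in Partek Flow, using Cell Ranger's aligner, filtered and normalized cells, and deposited log2(CPM + 1) values for 12436 genes per cell. Recovered UMI totals of some cells exceed the stated upper filter limit, and the cause was not tested. From these values a cell's commonest non-zero value was taken as 1 UMI, which made 99.934% of 39334018 values whole within 0.05 UMI or a relative 0.0002, whichever was larger. Only the first run of columns of each file was used, no further cells were filtered and no doublets were removed. UMIs were added up within a population and scaled to CPM, whose 95% intervals are exact Poisson intervals. Ratios carry exact binomial intervals and shares Clopper-Pearson intervals. Genes with at least 100 UMIs in the 2 pools together were compared, and no p-value was computed. A pool at 0 was given a floor of 3 counts. Python 3.11.15, numpy 2.4.6, scipy 1.17.1, pandas 2.3.3 and matplotlib 3.10.9 were used. The ratios were tested on simulated Poisson counts. There all genes changed by 3-fold or 4-fold and compared fell past 2-fold on the right side in each population. Such counts hold no variation between cells or libraries, so the check covers the calculation and counting error only.

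Named genes were for each population the 8 genes that rose and the 8 that fell most, ranked by the interval end nearest 1 among genes with at least 100 UMIs and 20 cells in the higher pool, the 3 marker genes, and members of 49 gene lists, of which those with most UMIs or the largest ratios are described. Genes were also ranked among those at least 2-fold above reference cells, a choice made after the values were seen. Members, lists and rules were chosen with earlier results of these data known. Alternatives were another scaling, minimum, depth, marker threshold and set of columns. Results for a few list members are not reported here.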

Additional observations from a re-analysis of the deposited data

Results flagged for a closer look

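Cd3e moved in opposite directions in the 2 diets over all cells, with a ratio of 0.219 (0.172 to 0.275) between 5 and 14 dpi in the control pair and of 5.91 (4.87 to 7.22) in the hypothyroid pair. With 1 library for each diet and day, the difference was not tested.

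The second run of columns in the control day 5 file enters only the counts with all columns. It correlated across genes at 0.996 with the first run of the control day 14 file and at 0.853 with the first run of its own file. Genes are not independent replicates, and the labels give no condition for the cells of later runs.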

How the results depend on the processing

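No paired analysis was possible because each day has 1 library, and for the same reason no replicate could be left out. With all columns of each file, 198 genes rose and 1182 fell over all cells, 116 and 622 in Pdgfra-positive cells, and 74 and 28 in Cdh5-positive cells, and 368 rose in Lyz2-positive cells. The ratios of the Pdgfra, Cdh5 and Lyz2 shares were then 1.60, 1.25 and 0.832, against 2.57, 3.84 and 0.541, and 4 lists had a median past 2-fold in place of 16. The ratios of Gdf10 (0.831), Ccl22 (0.814), Retnla (0.611) and Trem2 (1.28) changed direction there. All columns include the later runs, whose condition the labels do not give. Across genes, run 2 of the control day 14 file correlated most with the first run of control day 0 (0.990). Its run 3 correlated most with the first run of hypothyroid day 14 (0.994). With cells thinned to 1000 UMIs, populations were chosen again by the marker UMIs left, and fewer genes could be compared. This left 68 and 422 Pdgfra-positive cells at 5 and 14 dpi, not the 315 and 1071 of the per-cell values above. Over all cells 1213 fell, 140 rose and 46 fell in Pdgfra-positive cells, 145 and 60 in Cdh5-positive cells, and 57 and 74 in Lyz2-positive cells. The Pdgfra share ratio was 5.02. In this smaller set of Pdgfra-positive cells, Il6 (1.02) and the MHC class II median (0.56 on the log2 scale, against -1.98) changed direction. The cause was not tested. With a minimum of 20 UMIs, 1275 rose and 1793 fell in Pdgfra-positive, 1496 and 628 in Cdh5-positive and 1569 and 1301 in Lyz2-positive cells, and with 1 UMI in each pool 1393 and 2025, 1572 and 996, and 2222 and 1485. Where the whole interval had to pass 2-fold, these counts were 429 and 632, 278 and 103, and 384 and 287. The mean of each cell's CPM gave 2247 rises over all cells and 404 falls in Cdh5-positive cells. With 2 UMIs of the marker, 339 genes rose and 347 fell in Lyz2-positive cells, and the Pdgfra and Lyz2 share ratios were 2.25 and 0.402. Without cells holding another of the 3 genes, 370 rose in Lyz2-positive cells and the Lyz2 share ratio was 0.384. A mean of at least 30 CPM, chosen after seeing the data, gave 555 rises and 667 falls over all cells, 369 and 506 in Pdgfra-positive cells and 340 rises in Cdh5-positive cells. Of the 120 named genes past 2-fold, 55 stayed past it with all columns, 103 after thinning, 118 after division by the median ratio and 119 without the shared 5 dpi cells, as did 111 of 118 with the mean of each cell's CPM and 87 of 91 with 2 UMIs or more of the marker.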
